A study of Mus musculus with 6 samples.

Results

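The genes that drive cell division were followed in denervated gastrocnemius muscle of mice fed maslinic acid (MA), a triterpenoid of olive fruit. The set held 76 of the 17097 genes that at least 1 probe set of the array named alone. They were chosen by symbol, as the A, B, D and E cyclins, the numbered cyclin-dependent kinases (CDKs), the Mcm and Orc genes, the centromere protein (Cenp) genes, the Aurora, Polo-like and Bub genes, and Top2a, Mki67 and Pcna. The 3 genes Ccnb1ip1, Mcm3ap and Cenpj entered by their symbols alone, since they act in meiotic recombination, RNA export and centriole assembly. The value of a gene is that of its brightest probe set, leaving out probe sets that also named another gene. Ccnb1 and Orc3 were not analysed here.

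Cyclins are short-lived partners that switch CDKs on at set steps of the cell cycle. Before DNA is copied, the origin recognition complex marks origins and loads the MCM helicase there, a step called licensing. In mitosis, centromere proteins tie chromosomes to the spindle, while Aurora, Polo-like and Bub kinases time and check their separation. Fibers of adult muscle do not divide, so transcripts of dividing cells in a muscle sample are commonly looked for in satellite cells, immune cells, endothelial cells and fibroblasts. Some CDKs do not drive division at all and instead regulate transcription by RNA polymerase II.

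Male ICR mice, bought at 7 weeks of age, were fed the AIN-93G diet without MA (control group) or with 0.27% MA (MA group). After 1 week of feeding, both hind limbs were denervated by cutting the sciatic nerve and removing a 5-mm piece of it, and feeding went on until the gastrocnemius was taken on day 14 after surgery. Each group had 3 arrays, so all 6 samples were denervated and an intact muscle was not among them. Whether the arrays of one group stand for different animals is not stated in the sources used here. The p-values therefore cover array-to-array variation only, and with 3 arrays per group an exact two-sided permutation test could reach 0.1 at the lowest. The 12 measured genes of skeletal muscle fibers had mean log2 values between 9.45 and 12.66, far above background, as the tissue label says. In whole muscle, fewer cells of a type and less RNA per cell cannot be told apart.

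The values are log2 signals after robust multi-array averaging (RMA), a procedure that corrects the background and brings the arrays to one distribution. The array medians lay between 4.266 and 4.276. Differences are given as MA minus control on the log2 scale, with the standard error (SE) and adjusted p of limma, fitted over all 45037 probe sets. A gene is called higher or lower at an adjusted p under 0.05, and its change is called larger if the fold also exceeded 1.2. Each probe set has its own probes, so the signal of one gene is not a measure of its RNA against that of another.

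The member genes as a whole did not move one way in the MA group. Of the 76 genes, 21 were higher, 16 were lower and 39 did not pass the test, so that 48.7% were called, against 47.8% of all 17097 genes. Called higher were 27.6% of the members and 24.7% of all genes, and called lower were 21.1% and 23%. The median difference was 0.011 over the members and 0.006 over all genes, and the median size of a difference was 0.083 and 0.08. The groups did not overlap at 47 members, 61.8% of them, against 58.6% of all genes. The mean log2 value over the 76 members was 5.063, 5.060 and 5.062 on the MA arrays and 5.028, 5.041 and 5.054 on the control arrays. A larger change was found at 8 members. Of these, 6 rose, where 5.92% of all genes did, and 2 fell, where 6.87% of all genes did. The 6 include Cenpw by its measured difference, although its control group was at background.

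Some members, Mki67 among them, gave no signal above background. Background was set at 3.95, the highest value of the nonspecific control probe sets once 1 of them, with 25 G or C bases, was left out after its values were seen. With that control included the level would be 7.33, and 5 members had a mean above it. At 3.95, 18 members (23.7%) had a mean over the 6 arrays at or under the level, against 29.1% of all genes. By group means, 16 members were at background in both groups. Mki67, the gene of the Ki-67 protein that marks cycling cells, was at 3.282, 3.335 and 3.336 in the MA group and 3.345, 3.401 and 3.392 in the control group. Its difference was -0.06 (SE 0.027, adjusted p = 0.0954). Ccnb2, Ccne1, Bub1, Cenpa and Mcm5 were at background as well. Top2a, the topoisomerase that untangles replicated DNA, lay just above it, at 3.978, 3.925 and 3.997 in the MA group and 4.023, 3.996 and 3.941 in the control group, and the groups overlapped. Of the 18 members with a mean at background 22.2% were called, against 25% of all such genes, and of the 58 members above it 56.9% were called, against 57.1%.

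**Figure D1:**
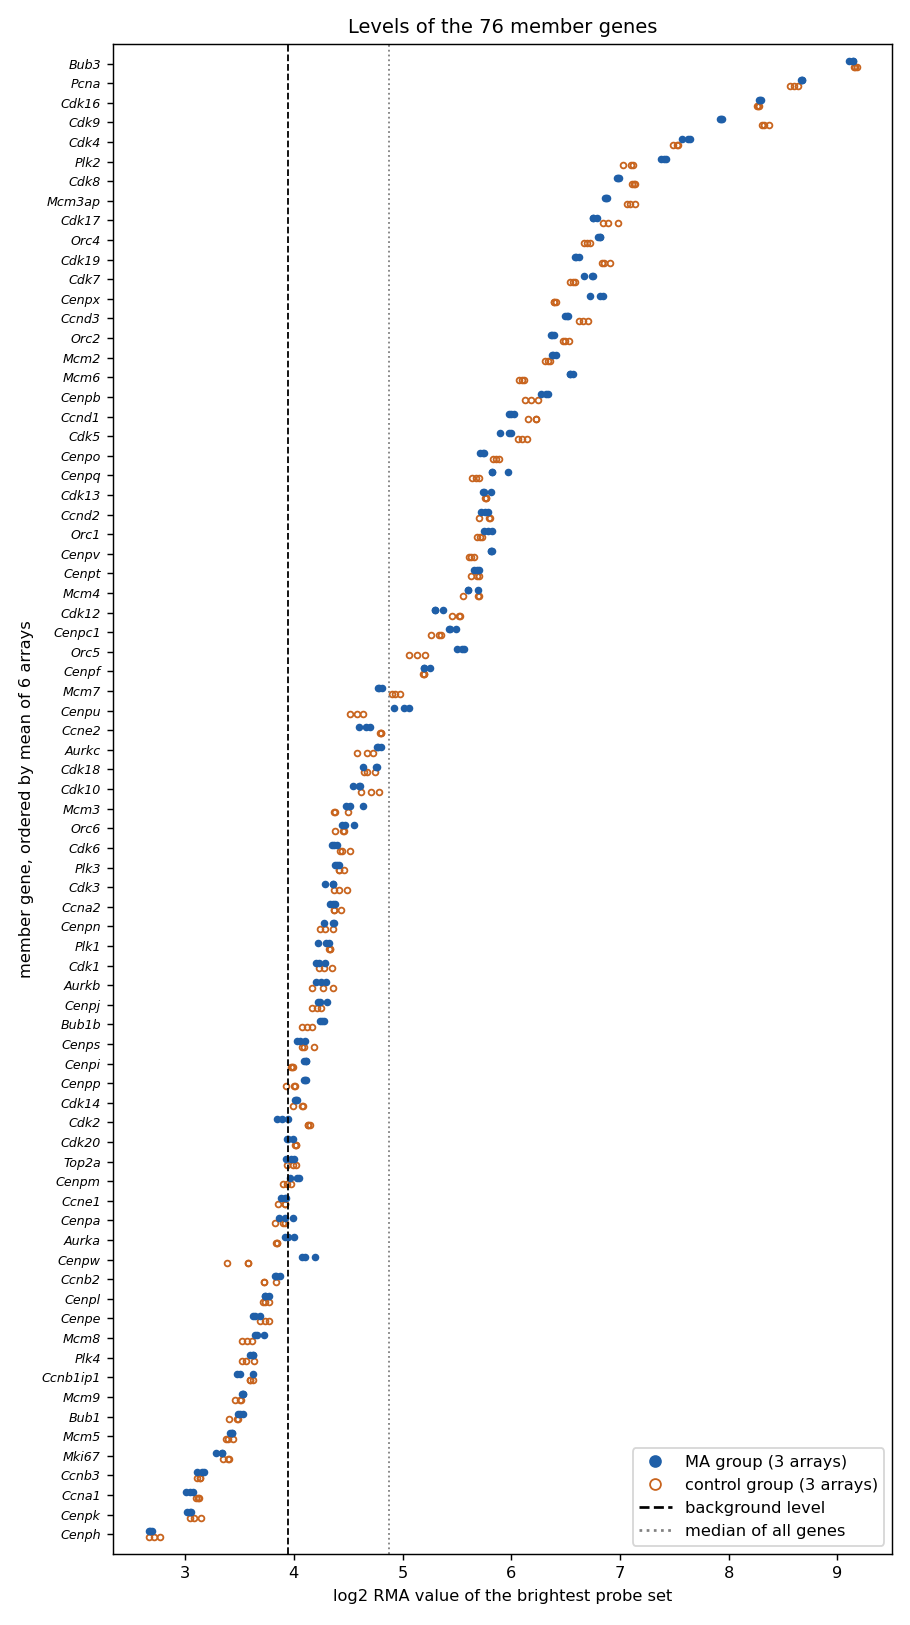
Log2 RMA value of the brightest probe set of each of the 76 member genes (x axis) on the 3 MA arrays (filled) and the 3 control arrays (open), ordered by the mean of 6 arrays, with the background level of 3.95 (dashed) and the median of all genes at 4.88 (dotted). The arrays of most genes lie close together, 18 genes have a mean at or under background, and Cenpw and Mcm6 show the widest gaps between the groups.

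Among the licensing genes, the largest difference was that of Mcm6. It encodes one of the subunits of the MCM2-7 helicase. Its log2 value was 6.54, 6.57 and 6.54 in the MA group and 6.10, 6.12 and 6.07 in the control group. All MA arrays were above all control arrays, and the difference of 0.45 (SE 0.023, adjusted p = 1.86e-06) was 1.37-fold. Mcm7, another subunit, went the other way, at 4.81, 4.78 and 4.77 in the MA group and 4.90, 4.93 and 4.98 in the control group. It fell by 0.15 (SE 0.027, adjusted p = 0.00271), and its second probe set fell by 0.13 (adjusted p = 0.00418). The other 4 subunits did not pass the test on their brightest probe sets. Their differences were 0.06 for Mcm2 (adjusted p = 0.0794), 0.13 for Mcm3 (adjusted p = 0.0584), -0.02 for Mcm4 (adjusted p = 0.755) and 0.02 for Mcm5 (adjusted p = 0.485). The second probe set of Mcm2 did pass, with a difference of 0.10 (adjusted p = 0.0175) and its control mean at background. Mcm2 was called with quantile normalization again (adjusted p = 0.0139) and with the mean of its probe sets (adjusted p = 0.0151), and Mcm3 with a trend in eBayes (adjusted p = 0.0359) and with the mean of its probe sets (adjusted p = 0.0142). The difference of Mcm4 took the other sign without control replicate 2 or 3. Mcm8 and Mcm9, relatives with a role in repair by homologous recombination, were at background, with differences of 0.11 (adjusted p = 0.0302) and 0.04 (adjusted p = 0.251).

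Orc5 rose the most of the origin recognition genes. Its log2 value was 5.50, 5.54 and 5.57 in the MA group and 5.06, 5.13 and 5.21 in the control group. The groups were well apart, with a difference of 0.40 (SE 0.038, adjusted p = 5.58e-05), or 1.32-fold. Of the 5 measured Orc genes, 3 were higher, 1 was lower and 1 did not pass. Called were 80%, with 60% higher and 20% lower, against 47.8%, 24.7% and 23% of all genes. Orc1 differed by 0.08 (adjusted p = 0.0433) and Orc2 by -0.12 (adjusted p = 0.00351). Other probe sets of Orc2 gave 0.01 (adjusted p = 0.731) and -0.15 (adjusted p = 0.00807). Orc6 gave 0.06 (adjusted p = 0.25). Orc4 has no single direction on this array, because its brightest probe set was higher by 0.12 (adjusted p = 0.0048) while another fell by 0.26 (adjusted p = 0.000172) and a further one by 0.16 (adjusted p = 0.0115). The mean over its 4 probe sets was lower in the MA group (-0.0867, adjusted p = 0.00342). The call of Orc1 was lost with any 1 array left out except MA replicate 2.

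The largest measured rise of a member was that of a centromere protein gene. Of 20 measured Cenp genes of the centromere and kinetochore, 9 were higher, 1 was lower (Cenpo, whose probe sets disagree) and 10 did not pass the test. That is 50% called, against 47.8% of all genes, with 45% higher, against 24.7%, in a grouping made after the values were seen. Their median difference was 0.059, and 6 of them had a mean at background. Cenpw, which encodes a histone-fold protein of the inner kinetochore, was 4.10, 4.07 and 4.19 in the MA group and 3.38, 3.58 and 3.58 in the control group. The MA arrays were just above background and the control arrays under it. The measured difference was 0.61 (SE 0.056, adjusted p = 5.47e-05), but since the control group was at background the change can only be given as at least 1.13-fold. Its second probe set, at background in both groups, differed by 0.03 (adjusted p = 0.317).

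Cenpx, a histone-fold partner of CENP-S that also acts at stalled replication forks, was 6.73, 6.82 and 6.84 in the MA group and 6.41, 6.39 and 6.39 in the control group. It rose by 0.40 (SE 0.032, adjusted p = 2.27e-05), or 1.32-fold, with no overlap and a signal far above background. Cenps and Cenpt, the remaining members of the CENP-T, W, S and X group, gave -0.06 (adjusted p = 0.228) and 0.01 (adjusted p = 0.821). Within the CENP-O, P, Q and U complex, part of the protein network that stays on centromeres throughout the cell cycle, 3 genes were higher and 1 was lower. Called were thus 100% of them, with 75% higher and 25% lower, against 47.8%, 24.7% and 23% of all genes. This role too was set after the values were seen, and Cenpo, called lower, has probe sets that disagree. Cenpu was 5.06, 5.02 and 4.92 in the MA group and 4.58, 4.51 and 4.64 in the control group. It was higher on every MA array, by 0.42 (SE 0.042, adjusted p = 9.1e-05), or 1.34-fold, while its dimmer probe set, at background, gave 0.01 (adjusted p = 0.779). Cenpq was higher by 0.20 (adjusted p = 0.00497) and Cenpp by 0.12 (adjusted p = 0.00685). Cenpo fell by 0.13 (adjusted p = 0.0036) on its brightest probe set and was higher by 0.14 (adjusted p = 0.00409) on another, so no direction is given for it.

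The genes of the proteins that define centromeric chromatin had differences of at most 0.14. Cenpb, whose product binds a motif in satellite DNA, was higher by 0.13 (adjusted p = 0.0159), and Cenpc1, the anchor of the kinetochore, by 0.14 (adjusted p = 0.00824). Cenpa, the centromeric histone H3 variant, was at background with a difference of 0.04 (adjusted p = 0.467). Cenpv and Cenpi were higher by 0.18 (adjusted p = 0.000267) and 0.12 (adjusted p = 0.00204). Cenpe, Cenpf, Cenph, Cenpk, Cenpl, Cenpm and Cenpn did not pass, with differences between -0.08 and 0.08.

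**Figure D2:**
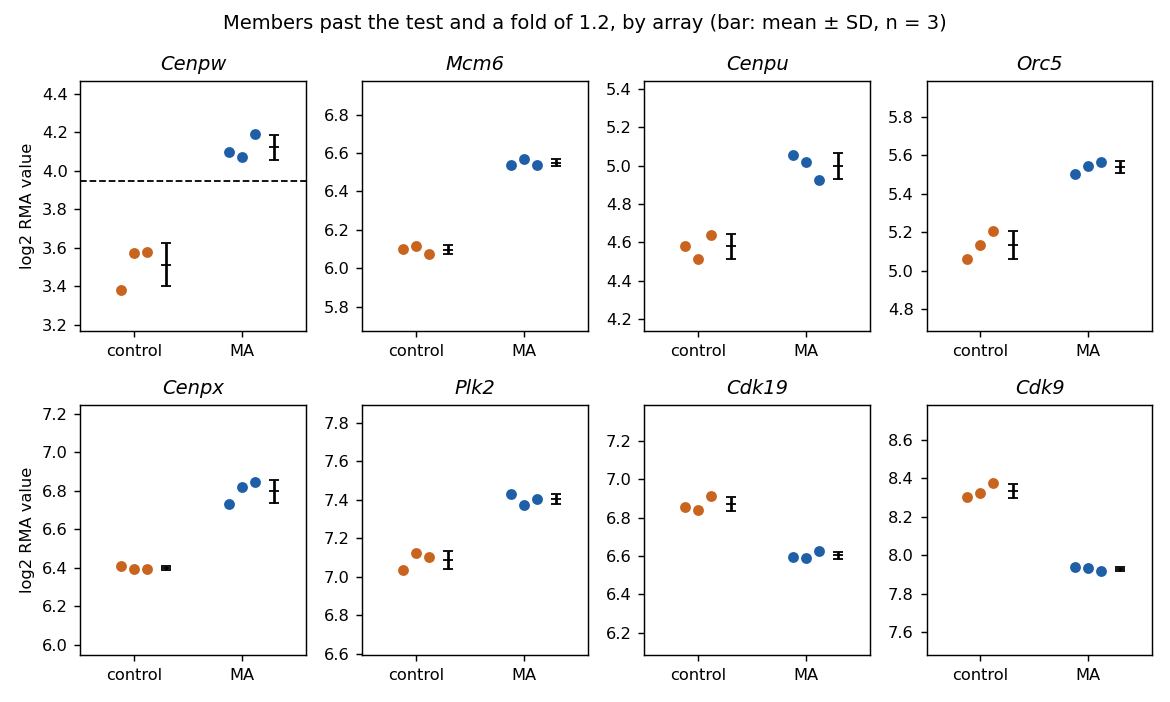
Log2 RMA value by array (y axis) of the 8 member genes with an adjusted p under 0.05 and a fold over 1.2, for the 3 control and the 3 MA arrays, with a bar for the mean ± SD of each group and a dashed line at the background level of 3.95. The groups do not overlap in any panel, and the 3 control values of Cenpw lie under background.

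The genes of mitotic timing showed small changes. Of 8 Aurora, Bub and Polo-like genes of mitosis, 3 were higher, none was lower and 5 did not pass on their brightest probe sets. Called were thus 37.5%, against 47.8% of all genes. Called higher were 37.5% and lower 0%, against 24.7% and 23% of all genes. Aurka, the kinase of the centrosome and spindle pole, was 3.998, 3.915 and 3.945 in the MA group and 3.849, 3.848 and 3.840 in the control group, which was at background. Its rise (measured difference 0.11, SE 0.026, adjusted p = 0.0115) can therefore only be given as at least 1.005-fold. Aurkb, the kinase of the chromosomal passenger complex, gave -0.01 (adjusted p = 0.874) and Aurkc, best known from germ cells, was higher by 0.12 (adjusted p = 0.0302). Plk1, which acts throughout mitosis, gave -0.05 (adjusted p = 0.224), and Plk4, the trigger of centriole duplication, was at background. For the spindle checkpoint, Bub1 gave 0.05 at background (adjusted p = 0.168) and Bub3 -0.03 (adjusted p = 0.254). Bub1b was higher by 0.14 (adjusted p = 0.00399) on its brightest probe set and fell by 0.11 (adjusted p = 0.0198) on another.

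Plk2 differs from its mitotic relatives in that it is also induced by stress and by neuronal activity. It was 7.43, 7.37 and 7.40 in the MA group and 7.03, 7.12 and 7.10 in the control group. Every MA array was higher, and the difference was 0.32 (SE 0.030, adjusted p = 5.78e-05), or 1.25-fold. Plk3, another relative with a role in stress responses, gave -0.03 (adjusted p = 0.341). Pcna, the sliding clamp of DNA polymerases in replication and repair, was 8.67, 8.67 and 8.68 in the MA group and 8.57, 8.60 and 8.63 in the control group. Its groups were close but did not overlap, with a difference of 0.07 (SE 0.024, adjusted p = 0.042), a call that was lost with any 1 array left out except control replicate 3.

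**Figure D3:**
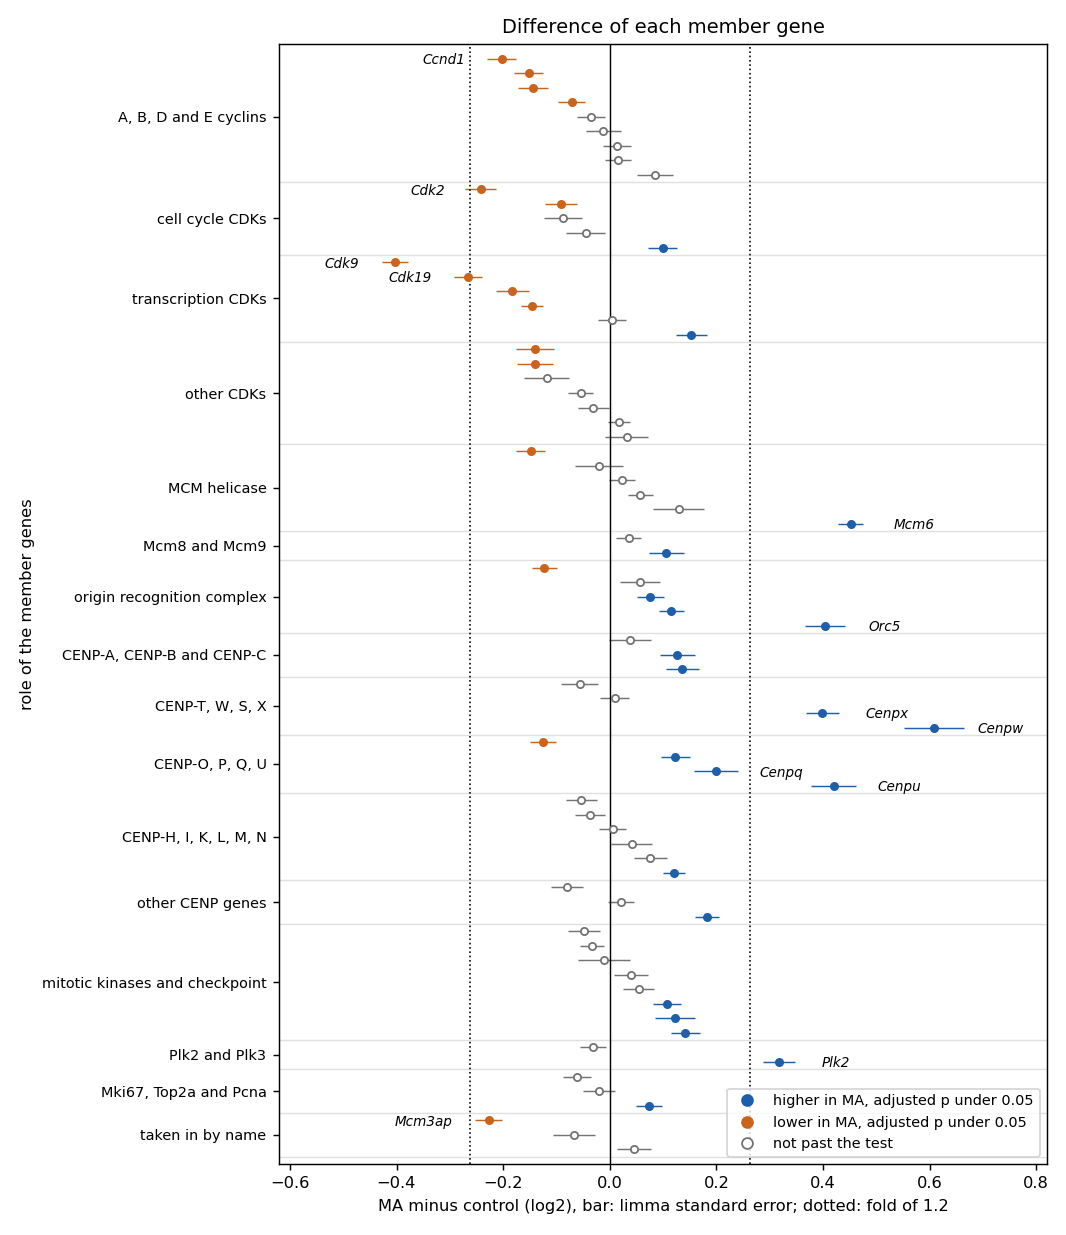
Difference of each of the 76 member genes between the MA and control groups (x axis, log2, bars are limma standard errors), grouped by role, with filled points for an adjusted p under 0.05 and dotted lines at a fold of 1.2. Points right of zero prevail among the Cenp and Orc genes and points left of zero among the CDKs, while most points of both lie inside the dotted lines.

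No cyclin of the set was higher on its brightest probe set. Of 9 A, B, D and E cyclins, 4 were lower and 5 did not pass the test, so that 44.4% were called, against 47.8% of all genes. Called lower were 44.4% and higher 0%, against 23% and 24.7% of all genes, and 4 of the 9 had a mean at background. Ccnd1, cyclin D1, which couples growth signals to entry into the cell cycle, was 6.023, 5.981 and 5.997 in the MA group and 6.158, 6.228 and 6.224 in the control group. It was lower on every MA array, by a difference of -0.20 (SE 0.027, adjusted p = 0.000462). Another of its 3 probe sets fell further, by 0.34 (adjusted p = 0.000105), and the remaining one gave -0.02 (adjusted p = 0.783). Ccnd3, the D-type cyclin tied to muscle differentiation, fell by 0.15 (SE 0.027, adjusted p = 0.00226), from 6.66 ± 0.043 to 6.51 ± 0.011 (SD, n = 3). Ccne2, an E-type cyclin of the start of S phase, fell by 0.14 (adjusted p = 0.00407). Ccna1, counted among the 4, was at background in both groups with a difference of -0.07 (adjusted p = 0.0484). Ccnd2 gave -0.01 (adjusted p = 0.803), with 1 of its other 5 probe sets higher by 0.10 (adjusted p = 0.0416) and 1 lower (-0.21, adjusted p = 0.000295). Ccna2, the A-type cyclin of dividing somatic cells, gave -0.04 (adjusted p = 0.318). Ccnb2, Ccnb3 and Ccne1 were at background, with differences of 0.09, 0.02 and 0.01.

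Of the 5 CDKs of the cell cycle, 1 was higher, 2 were lower and 2 did not pass, so that 60% were called, against 47.8% of all genes. Called higher were 20% and lower 40%, against 24.7% and 23% of all genes. Cdk2, the partner of cyclins E and A, was 3.94, 3.90 and 3.84 in the MA group and 4.13, 4.13 and 4.15 in the control group. The MA arrays lay under background and the control arrays above it, so the fall is given as at least 1.14-fold (measured difference -0.24, SE 0.029, adjusted p = 0.000239). Cdk4, a partner of the D cyclins, was higher by 0.10 (adjusted p = 0.0171), and its other probe sets by 0.10 (adjusted p = 0.0267) and 0.18 (adjusted p = 0.00315). Cdk6, its close relative, fell by 0.09 (adjusted p = 0.0385), while its other probe sets, at background, gave -0.20 (adjusted p = 0.00107) and -0.11 (adjusted p = 0.0151). The call of Cdk4 was lost without MA replicate 2 or 3, and that of Cdk6 with any 1 array left out except control replicate 1. Cdk1, the kinase that starts mitosis, was 4.28, 4.21 and 4.23 in the MA group and 4.35, 4.23 and 4.27 in the control group. Its groups overlapped, with a difference of -0.05 (SE 0.036, adjusted p = 0.35). Cdk3, a kinase of the exit from quiescence, gave -0.09 (adjusted p = 0.0806).

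Of the 8 CDKs that were lower, 4 belonged to the kinases of transcription. Of the 6 measured genes of that kind 4 were lower, 1 was higher (Cdk7, whose probe sets disagree) and 1 did not pass, with a median difference of -0.164. These were 66.7% lower and 16.7% higher, against 23% and 24.7% of all genes, in a role set after the values were seen. Cdk9, the kinase of P-TEFb, which releases paused RNA polymerase II, was 7.94, 7.93 and 7.92 in the MA group and 8.30, 8.33 and 8.37 in the control group. The groups were far apart for their spread, and Cdk9 fell by 0.40 (SE 0.025, adjusted p = 5.26e-06), or 1.32-fold, the largest fall of a member. Its second probe set, at background, gave -0.09 (adjusted p = 0.0937). Cdk19, a kinase of the Mediator complex, was 6.60, 6.59 and 6.62 in the MA group and 6.86, 6.84 and 6.91 in the control group. It fell by 0.27 (SE 0.026, adjusted p = 8.11e-05) with no overlap, and its second probe set fell by 0.19 (adjusted p = 0.00122). At 1.202-fold it lay just past the fold of 1.2 and was under it without MA replicate 2 or without control replicate 3.

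Cdk8, the other Mediator kinase, fell by 0.15 (SE 0.021, adjusted p = 0.00066). Cdk12, which with cyclin K phosphorylates the tail of RNA polymerase II, fell by 0.18 (SE 0.031, adjusted p = 0.00164). Its relative Cdk13 gave 0.004 (adjusted p = 0.909) on its brightest probe set, while another of its probe sets fell by 0.36 (SE 0.028, adjusted p = 2.2e-05). Cdk7, the kinase of TFIIH, was higher by 0.15 (SE 0.029, adjusted p = 0.00298) on its brightest probe set. Of its 4 other probe sets, 2 fell, by 0.30 (adjusted p = 0.000425) and 0.12 (adjusted p = 0.00452), so Cdk7 too has no single direction. Of the remaining 7 CDKs, Cdk5, known from neurons, and Cdk17 each fell by 0.14 (adjusted p = 0.0115 and 0.0144). Another probe set of Cdk5, above background, gave 0.02 (adjusted p = 0.531). The other 5 did not pass the test on their brightest probe sets, with differences between -0.12 and 0.03. The second probe set of Cdk16 was higher by 0.19 (adjusted p = 0.000317). Further probe sets of Cdk14, at background, were higher by 0.15 (adjusted p = 0.00412) and 0.155 (adjusted p = 0.0032). Over all 18 CDKs, 2 were higher and 8 were lower, with a median difference of -0.089. That is 11.1% higher and 44.4% lower, against 24.7% and 23% of all genes. All 18 had a mean over the 6 arrays above background, though the MA mean of Cdk2 was at background. Of all genes with a mean above background 57.1% were called, against 55.6% of the CDKs. This grouping too was made after the values were seen. Of the genes that entered by symbol alone, Mcm3ap was lower (-0.23, SE 0.026, adjusted p = 0.000186) and Ccnb1ip1 and Cenpj did not pass.

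Several probe sets of one gene often gave different answers. The 76 members had 143 probe sets, and 37 members had more than 1. Of the 67 probe sets that were not the brightest of their gene, 29 passed the test, 17 of them in the direction of the brightest. Bub1b, Ccnd2, Cdk7, Cenpo and Orc4 each had probe sets past the test in both directions. With any probe set of a gene counted, the members that fell by more than 1.2-fold were 5 in place of 2, as Ccnd1, Cdk7 and Cdk13 joined Cdk9 and Cdk19. Which transcripts of a gene each probe set reads was not analysed here.

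**Figure D4:**
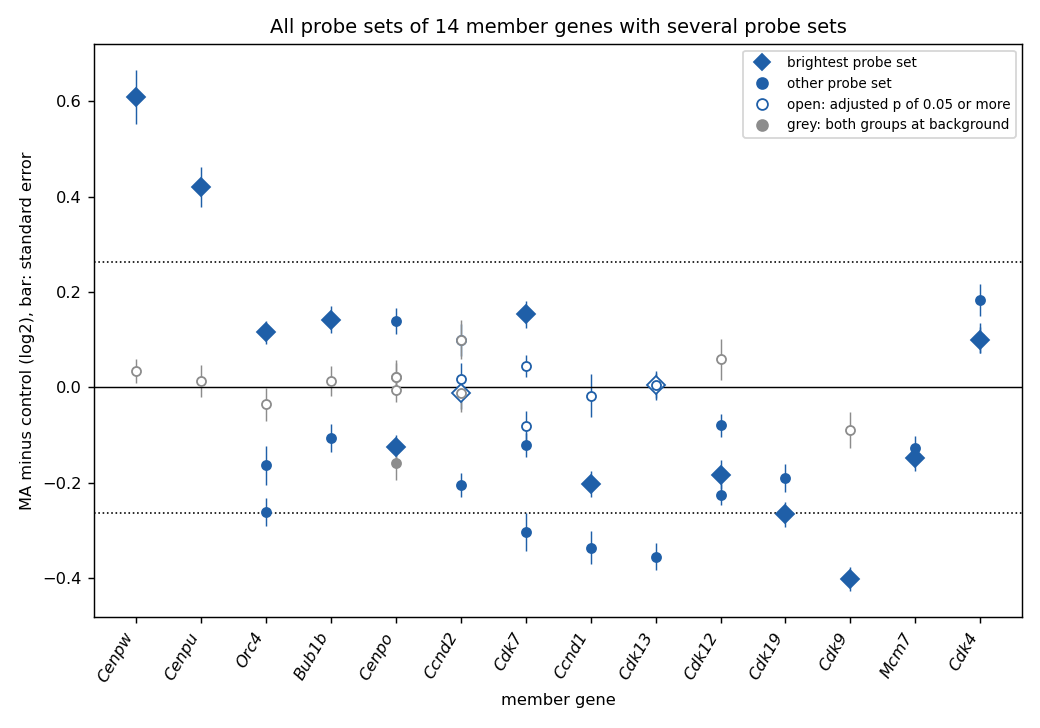
Difference between the MA and control groups (y axis, log2, bars are standard errors) for every probe set of 14 member genes with several probe sets, where diamonds are the brightest probe sets, open symbols did not pass the test, grey symbols were at background in both groups and dotted lines mark a fold of 1.2. Orc4, Bub1b, Cenpo, Ccnd2 and Cdk7 have filled symbols on both sides of zero, while those of Mcm7, Cdk4 and Cdk19 lie on one side.

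Promoter sequences were available for 66 of the 76 members, in 76 windows of 300 bases, 250 before and 50 after each start in RefSeq (build GRCm38.p6). Each window was searched on both strands for the cell cycle homology region (CHR, TTTGAA), the CCAAT box (CCAAT) and 4 forms of the E2F site (TTTGGCGC, TTTCCCGC, TTTGGCGG and TTTCGCGC), elements through which genes of S phase and mitosis are classically regulated. An E2F form was found in 17.1% of the members' windows and in 2.37% of all 32851 windows of the table. A CCAAT box was found in 64.5% and 37.4%, and a CHR in 21.1% and 17.9%. These are matches of letters and not binding sites. Of the 13 genes with an E2F form, 5 were higher (Cenpb, Mcm6, Mcm8, Orc1 and Orc4), 2 were lower (Cdk2 and Mcm7) and 6 did not pass. These calls are those of the brightest probe sets. Orc4 has no single direction over its probe sets, Mcm8 was at background in both groups and Cdk2 was at background in the MA group. Of the 53 genes without one, 16 were higher, 9 were lower and 28 did not pass. Of the 15 genes with a CHR, 3 were higher (Aurka, Bub1b and Cenpw), none was lower and 12 did not pass. The control means of Aurka and Cenpw were at background, and Bub1b had probe sets past the test in both directions. Among all genes 24.7% were called higher and 23% lower.

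The 250 bases upstream of the start are shown, 5′ to 3′ on the gene's strand, for the 2 MCM genes that moved in opposite directions, for the genes with the largest measured rise and fall, and for Cdk1, which did not pass the test. Capitals mark the matches on either strand, so that an E2F form or a CHR on the other strand appears as its reverse complement, and ATTGG is a CCAAT box read from the other strand. All 5 genes lie on the minus strand, Mcm6 at chr1:128359706-128359955, Mcm7 at chr5:138171884-138172133, Cenpw at chr10:30200541-30200790, Cdk9 at chr2:32712785-32713034 and Cdk1 at chr10:69352913-69353162.
Mcm6: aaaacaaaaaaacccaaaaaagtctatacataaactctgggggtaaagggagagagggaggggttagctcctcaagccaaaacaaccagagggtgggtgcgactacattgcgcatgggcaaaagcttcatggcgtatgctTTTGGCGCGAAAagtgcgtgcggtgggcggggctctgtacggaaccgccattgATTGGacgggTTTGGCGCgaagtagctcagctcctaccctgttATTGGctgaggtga
Mcm7: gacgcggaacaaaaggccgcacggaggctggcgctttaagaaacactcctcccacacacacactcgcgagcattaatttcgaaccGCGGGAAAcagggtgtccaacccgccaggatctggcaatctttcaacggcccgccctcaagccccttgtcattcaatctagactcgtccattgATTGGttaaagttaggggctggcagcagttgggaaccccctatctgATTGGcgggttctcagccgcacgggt
Cenpw: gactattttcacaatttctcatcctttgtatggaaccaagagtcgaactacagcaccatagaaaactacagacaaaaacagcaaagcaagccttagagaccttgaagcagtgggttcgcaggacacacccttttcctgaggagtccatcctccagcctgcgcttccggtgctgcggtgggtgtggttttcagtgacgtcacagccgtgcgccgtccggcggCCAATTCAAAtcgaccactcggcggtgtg
Cdk9: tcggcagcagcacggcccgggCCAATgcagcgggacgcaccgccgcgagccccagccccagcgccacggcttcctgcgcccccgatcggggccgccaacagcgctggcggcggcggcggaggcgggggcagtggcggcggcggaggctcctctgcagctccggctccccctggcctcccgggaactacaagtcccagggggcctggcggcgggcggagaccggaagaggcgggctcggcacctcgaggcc
Cdk1: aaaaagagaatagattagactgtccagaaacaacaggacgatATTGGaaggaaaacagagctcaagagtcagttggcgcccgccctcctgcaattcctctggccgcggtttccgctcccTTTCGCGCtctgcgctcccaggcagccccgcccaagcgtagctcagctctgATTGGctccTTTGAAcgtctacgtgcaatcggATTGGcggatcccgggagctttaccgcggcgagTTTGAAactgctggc

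Mcm6, which rose, and Mcm7, which fell, both hold E2F forms and CCAAT boxes. With -1 as the base before the start, Mcm6 has 3 E2F matches, at -110 to -103, at -106 to -99 on the other strand and overlapping the first, and at -47 to -40. Mcm7 has 1 in the bases shown, at -165 to -158. Cdk1 has an E2F form at -131 to -124 and a CHR at -71 to -66 and again at -15 to -10. Cenpw has a CHR at -25 to -20 on the other strand, which shares 1 base with a CCAAT box. Cdk9 has a single CCAAT box at -229 to -225 and no match to the other motifs in this window.

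The genes around these members were read from 5 further lists. Of 11 CDK inhibitors and members of the retinoblastoma family, 3 were higher and 5 were lower, with a median difference of -0.063. Called were 72.7% of them, with 27.3% higher and 45.5% lower, against 47.8%, 24.7% and 23% of all genes. Cdkn1c, the inhibitor p57, was 9.53, 9.53 and 9.54 in the MA group and 9.90, 9.91 and 9.90 in the control group, with no overlap. It fell by 0.37 (SE 0.020, adjusted p = 2.6e-06). Cdkn2c, the inhibitor p18 of Cdk4 and Cdk6, was higher by 0.28 (adjusted p = 0.00109), and Cdkn2b, which inhibits the same kinases, was lower (measured difference -0.33, adjusted p = 0.000127) with its MA mean at background. Cdkn1b (p27) was higher by 0.11 (adjusted p = 0.00327) and Cdkn1a (p21) by 0.06 (adjusted p = 0.0414).

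Of 16 E2F, B-Myb, MuvB and Foxm1 genes, 6 were higher and 2 were lower (median difference 0.082). Called were 50%, close to the 47.8% of all genes. Called higher were 37.5%, against 24.7% of all genes, and called lower were 2 of the 16, against 23% of all genes. E2f2, an activating E2F, fell by 0.44 (SE 0.040, adjusted p = 5.43e-05), from 5.996 ± 0.085 to 5.560 ± 0.016 (SD, n = 3). Tfdp2, a dimerization partner of E2F proteins, was higher by 0.35 (SE 0.028, adjusted p = 2.05e-05), and Rbbp4, a histone-binding subunit of MuvB and other complexes, fell by 0.28 (adjusted p = 2.12e-05). E2f1 gave 0.10 (adjusted p = 0.11) and Foxm1, the activator of mitotic genes, was higher by 0.09 (adjusted p = 0.0393).

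Of 41 replication factors and enzymes of nucleotide synthesis, 10 were higher and 11 were lower (median difference 0.02). Called were 51.2%, close to the 47.8% of all genes. Pold2, a subunit of DNA polymerase delta, was 5.86, 5.84 and 5.83 in the MA group and 5.46, 5.42 and 5.47 in the control group. It rose by 0.39 (SE 0.024, adjusted p = 4.96e-06) with no overlap. Rrm1 and Rrm2, the subunits of ribonucleotide reductase, rose by 0.31 (SE 0.028, adjusted p = 5.59e-05) and 0.28 (SE 0.023, adjusted p = 2.77e-05). Gmnn, the gene of geminin, which blocks relicensing, gave -0.37 (adjusted p = 8.98e-06) at background in both groups.

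Of 51 spindle, kinetochore and mitotic exit genes, 9 were higher, 4 were lower and 38 did not pass, none passed both the test and a fold of 1.2, and 25 had a mean at background. Called were 25.5% of these genes, against the 47.8% of all genes. Of all genes, 25% of those with a mean at background and 57.1% of those above it were called. The largest differences among those past the test were 0.26 for Spc25 of the Ndc80 complex (adjusted p = 0.00112), 0.23 at background for Racgap1 of the central spindle (adjusted p = 0.000518) and 0.17 for Prc1, which bundles spindle microtubules (adjusted p = 0.00586). Cdc20, the activator of the anaphase-promoting complex, was higher by 0.11 (adjusted p = 0.0412), and Birc5, survivin, gave 0.03 (adjusted p = 0.588).

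Of 20 other cyclins and CDK partners, 7 were higher and 8 were lower (median difference -0.081). Called were 75%, with 35% higher and 40% lower, against 47.8%, 24.7% and 23% of all genes. Ccnl2 and Ccnl1, cyclins of RNA splicing and transcription, fell by 0.63 (SE 0.029, adjusted p = 9.56e-07) and 0.49 (SE 0.027, adjusted p = 2.63e-06), and Ccnk, the partner of Cdk12 and Cdk13, was higher by 0.39 (SE 0.068, adjusted p = 0.00219). The partners of the other transcription kinases were named after their values were seen. Ccnt1, which forms P-TEFb with Cdk9, was 7.28, 7.33 and 7.33 in the MA group and 7.59, 7.63 and 7.63 in the control group. It was lower on every MA array (-0.31, SE 0.025, adjusted p = 2.73e-05), and Ccnt2, its alternative, fell by 0.23 (adjusted p = 0.000113). Ccnh and Mnat1, the partners of Cdk7, gave 0.10 (adjusted p = 0.00676) and -0.07 (adjusted p = 0.0528), and Ccnc, the partner of Cdk8 and Cdk19, -0.12 (adjusted p = 0.0586).

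**Figure D5:**
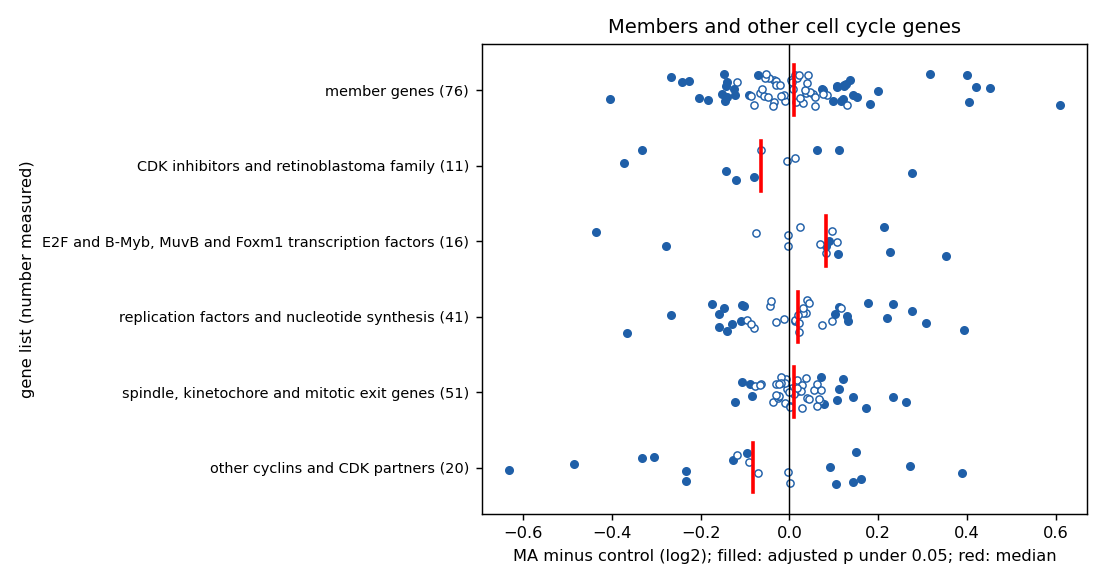
Difference between the MA and control groups (x axis, log2) for the 76 members and 5 further lists of cell cycle genes, where each point is a gene, filled points have an adjusted p under 0.05 and red bars are medians. All medians lie between -0.081 and 0.082, and the points of the spindle, kinetochore and mitotic exit genes lie nearest to zero.

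Marker genes of cell types found in muscle also differed between the groups. Beside the counts that follow, 47.8% of all genes were called, 24.7% higher and 23% lower. Of 13 macrophage markers 10 were lower (76.9%) and none was higher, with a median difference of -0.558. The sum of their linear signals was 2377 to 2418 on the MA arrays and 3695 to 3764 on the control arrays, and the means of Itgam and Mertk over the 6 arrays were at background. A sum is carried by the brightest probe sets of its list. Of 11 endothelial markers 9 were lower and none was higher, with sums of 452 to 468 in the MA group and 524 to 543 in the control group. Tie1, called lower, was at background in both groups. Of 10 markers of T and NK cells 7 were lower and 1 was higher, with sums of 181 to 186 and 197 to 199. Cd3g and Klrd1, both called lower, and Cd2 were at background in both groups. Fibroblast markers went the other way, since of 8 markers of fibroblasts and fibro-adipogenic progenitors 5 were higher and 1 was lower, with sums of 5699 to 5719 and 4728 to 4804. Of 11 markers of satellite cells and myoblasts 3 were higher and 5 were lower, with sums of 5316 to 5369 and 5644 to 5662, of which Des and Myog, also expressed in muscle fibers, were the brightest. Calcr was at background in both groups, and Pax7, which marks satellite cells, had means of 3.86 in the MA group, at background, and 3.97 in the control group (adjusted p = 0.0146). Of 7 smooth muscle and pericyte markers 4 were lower and 1 was higher (1147 to 1170 and 1582 to 1605). Of 7 Schwann cell markers 4 were higher and 3 were lower (560 to 574 and 463 to 492). Their brightest, Ncam1, also rose the most of them, by 0.62 (adjusted p = 4.45e-06), while Mbp fell by 0.49 (adjusted p = 9.18e-06). S100b, called lower, was at background in both groups, and Egr2, called lower, had its MA mean at background. Which cells gave the Ncam1 signal was not tested. Of 4 adipocyte markers 3 were higher and 1 was lower, while their sum was lower in the MA group (2189 to 2225 and 2461 to 2500). Lep, called higher, was at background in both groups. Of 5 markers each of B cells and plasma cells (86 to 87 and 90 to 91) and of neutrophils (165 to 167 and 126 to 131) 1 was higher and 1 was lower. Called were thus 40% of each of these lists. Their markers called lower, Jchain and S100a9, were at background in both groups. Of 12 genes of muscle fibers 5 were higher and 1 was lower (54473 to 54691 and 51889 to 51978), so that 50% were called. The part of these shifts in the differences of the member genes was not tested.

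The array's hybridization controls, RNA spiked into each sample, gave higher values in the MA group with all 18 probe sets, with a median difference of 0.173 and a largest one of 0.354. Of the 37 members called, 23 differed by less than 0.173. The 5 rises of Cenpw, Mcm6, Cenpu, Orc5 and Cenpx and the fall of Cdk9 were larger than 0.354 as measured, 6 of the 76 members in all, where 7.65% of all genes passed the same limit. The part of these controls in the members' differences was not tested.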

How the data were processed

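Gastrocnemius RNA of 6 samples, 3 per group, was labelled with a 3' IVT kit and hybridized to Affymetrix GeneAtlas mouse arrays. A human array is named in the design text, but the probe sets carry the identifiers of the mouse array. The authors applied RMA in Affymetrix Expression Console, so the deposited values are log2 intensities, background-corrected, quantile-normalized and summarized per probe set. The version of Expression Console is not given in the sources used here.

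The log2 values were analysed as deposited in R 4.3.3 with limma 3.58.1 (lmFit and eBayes, no trend, not robust, no covariate). Of 45141 probe sets, 104 array controls were set aside. Benjamini-Hochberg adjustment ran over the other 45037, of which 28898 named 1 gene, 551 named several and 15588 named none. Genes were named from GEO's platform annotation. The number of arrays limits the precision.

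Background was meant to be the highest of the 23 nonspecific control probe sets on any array. That gave 7.33, set by a control of 25 G or C bases that stood far above the others, so the level without it, 3.95, was used, a choice made after seeing the data. Named members were those past the test and a fold of 1.2 and a list of cell cycle genes named whatever their values. Of each further list, the 3 with the largest difference past the test and 8 set genes were named. The members and lists were chosen with earlier results of these data known, and the roles under which members are grouped after their values were seen. Some other members and list genes were named after their values were seen. The fit was tested on simulated data.

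Results were recomputed with the one-way ANOVA of the study's methods, with a trend or robust moderation in eBayes, after centring on the median or a second quantile normalization, without dim probe sets, with array weights, with a replicate block, and with other choices of a gene's probe set, other fold limits, the genes taken in by symbol alone left out, and each array left out in turn. RefSeq promoter windows were searched by exact match.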

Additional observations from a re-analysis of the deposited data

How the results depend on the processing

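Under 22 alternatives, the differences of the 8 members past the test and a fold of 1.2 kept their direction and stayed past the test wherever they could be fitted. Their number past the fold depended on the setting. Those higher in the MA group were 6, but 5 with the mean of a gene's probe sets, 5 with the fold limit set at the largest hybridization control, 1 with a fold over 1.5 and 1 where dim probe sets were left out at the level set by all controls, 7.33, under which most members were not tested. The members lower past that fold were 2, but 1 with quantile normalization again, 0 with the mean of a gene's probe sets, 5 with any probe set of a gene counted, 0 with a fold over 1.5, 1 with the hybridization control limit and 1 with dim probe sets left out at 7.33. That filter also left 3 members higher and 2 lower at any fold, in place of 21 and 16, and the one-way ANOVA of the methods left 14 and 12. With 1 array left out, the members higher were 17 to 21, those lower 13 to 18, those higher past 1.2-fold 6 in every case and those lower 1 to 2, with Cdk19 the gene lost.

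Among the 37 named members, in the alternatives under which each could be fitted, a change of sign arose only where at least one of the values was not past the test, except at Orc4 with the mean of its probe sets (-0.0867). The others were Ccnd2 with quantile normalization again (0.00834) and Aurkb with array weights (0.00425). With 1 array left out, signs changed within the ranges of Ccnd2 (-0.0446 to 0.00671), Top2a (-0.0429 to 0.000547), Aurkb (-0.0611 to 0.0363), Ccne1 (-0.00717 to 0.0254) and Mcm4 (-0.0689 to 0.0091).

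Samples with the same replicate number in both groups correlated in their deviations with r = 0.188, 0.0416 and 0.142, not all over 0.1. Samples with different numbers gave r between -0.18 and 0.0698. The sample labels name no pairing, and so few values cannot decide whether same-numbered samples were handled together. With a replicate block 21 members were higher and 17 lower, 6 and 2 past 1.2-fold. Among the named members the block lost Pcna (adjusted p = 0.0506) and gained Ccnb2 (adjusted p = 0.0356). The filter on dim probe sets at 3.95 was chosen after seeing the data and gave 20 higher and 16 lower.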
